A study of Mus musculus with 12 samples.

Results

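The respiratory chain genes described here were 87 probe sets among the 25428 of a mouse striatum array study. The members were taken by gene symbol, with no measured value in the rule. The symbols were those that name nuclear-encoded subunits of complexes I to V (Nduf with a, b, c, s or v, Sdha to Sdhd, Uqcr, Cyc1, Cox4 to Cox8 and Atp5). Only protein-coding genes were kept, so 4 pseudogenes that the symbols also matched were left out. Counted by symbol, the members comprised 37 complex I, 4 complex II, 8 complex III, 17 complex IV and 13 complex V genes. The same pattern takes in 8 Ndufaf genes, which encode complex I assembly factors and not subunits, and these are given apart. Ndufa4 was counted in complex I by its symbol, although its protein is now known as a subunit of complex IV. Ndufa4l2 in complex I and Cox7a2l in complex IV were likewise placed by symbol alone.

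The study compared striatal tissue of embryos at embryonic day 18.5 on a C57BL/6J background, with 1 array for each. There were 6 samples labelled wild type (WT). The 6 samples labelled Nestin-Cre (Foxp1-/-), called cKO here, carried a Foxp1 knockout by Cre under Nestin control, which is active in neural progenitors and so reaches the neurons and glia that descend from them. Foxp1 is a forkhead transcription factor. The labels do not say whether the WT animals carried Cre or floxed alleles, and number the samples as separate biological replicates. The comparison asks which striatal transcripts differ between the genotypes shortly before birth, and here whether those of the respiratory chain do.

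The respiratory chain lies in the inner mitochondrial membrane. Complex I accepts electrons from NADH and complex II from succinate, and both pass them through ubiquinone to complex III, then through cytochrome c to complex IV, which reduces oxygen. Complexes I, III and IV pump protons, and complex V, the ATP synthase, uses the gradient to make ATP. Most subunits are encoded in the nucleus and imported, while a core set is encoded by mitochondrial DNA, which was not analysed here. Developing neurons come to depend on oxidative phosphorylation as they leave the progenitor state.

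Values are RMA log2 expression, on which every array had a median of 5.71 and a range of about 5.21 to 13.99. Arrays had mean correlations of 0.994 to 0.997 with the others. WT replicates 3 and 6 were the least like the rest. Foxp1 checked the labels. It read between 10.89 and 11.39 (median 11.15) in WT and between 10.14 and 10.36 (median 10.22) in cKO, with no overlap, and fell by 0.91 ± 0.07 (SE) on the log2 scale (limma adjusted p = 0.000170). Y-linked genes averaged 7.25 to 7.56 in 4 WT and 7.34 to 7.65 in 3 cKO arrays, and 5.35 to 5.42 in the others, so both groups held both sexes.

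No member passed the test. Some subunit genes with such symbols were not among the members, for example Ndufb4, Ndufs5, Uqcrb, Cox7c, Atp5l, Atp5g1 and Atp5g2. The counts do not cover them. Of the 87 members 0 were called higher and 0 lower in cKO at a limma adjusted p under 0.05 over all probe sets, where 0.728% of probe sets (185) were called. The smallest adjusted p of a member was 0.226, for Ndufb6. At an unadjusted p under 0.05, 7 members were lower and 0 were higher, together 8.05% of the members, against 10.7% of all probe sets, of which 5.67% were lower and 5.06% higher. The members' share lay below that background over both directions, and above it among lower probe sets (8.05% against 5.67%). An ordinary linear model without moderated variances also called 0 members, with 4 lower and 0 higher where p alone was under 0.05. For 0 members were the WT and cKO arrays fully apart, which was so for 1.38% of all probe sets. With WT replicates 3 and 6 left out together 0 members were called, and 4 were lower and 4 higher at an unadjusted p under 0.05. In bulk tissue, fewer cells of a type and less RNA per cell cannot be told apart.

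The differences were small in either direction. The median difference, cKO minus WT, was -0.0052 log2 units over the 87 members and -0.00077 over all probe sets. Single members ran from -0.21 to 0.13, with 50 negative and 37 positive. All 87 of the 95% intervals lay within a 1.5-fold change, and 83 lay within a 1.25-fold change in either direction (95.4%, against 96.2% of all probe sets). The 4 members whose interval reached past 1.25-fold were Ndufb6, Ndufab1, Ndufb10 and Atp5md. Ndufab1, singled out here after its values were seen, had an interval of -0.19 to 0.36 and spread over 6.45 to 7.29 in cKO.

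**Figure D1:**
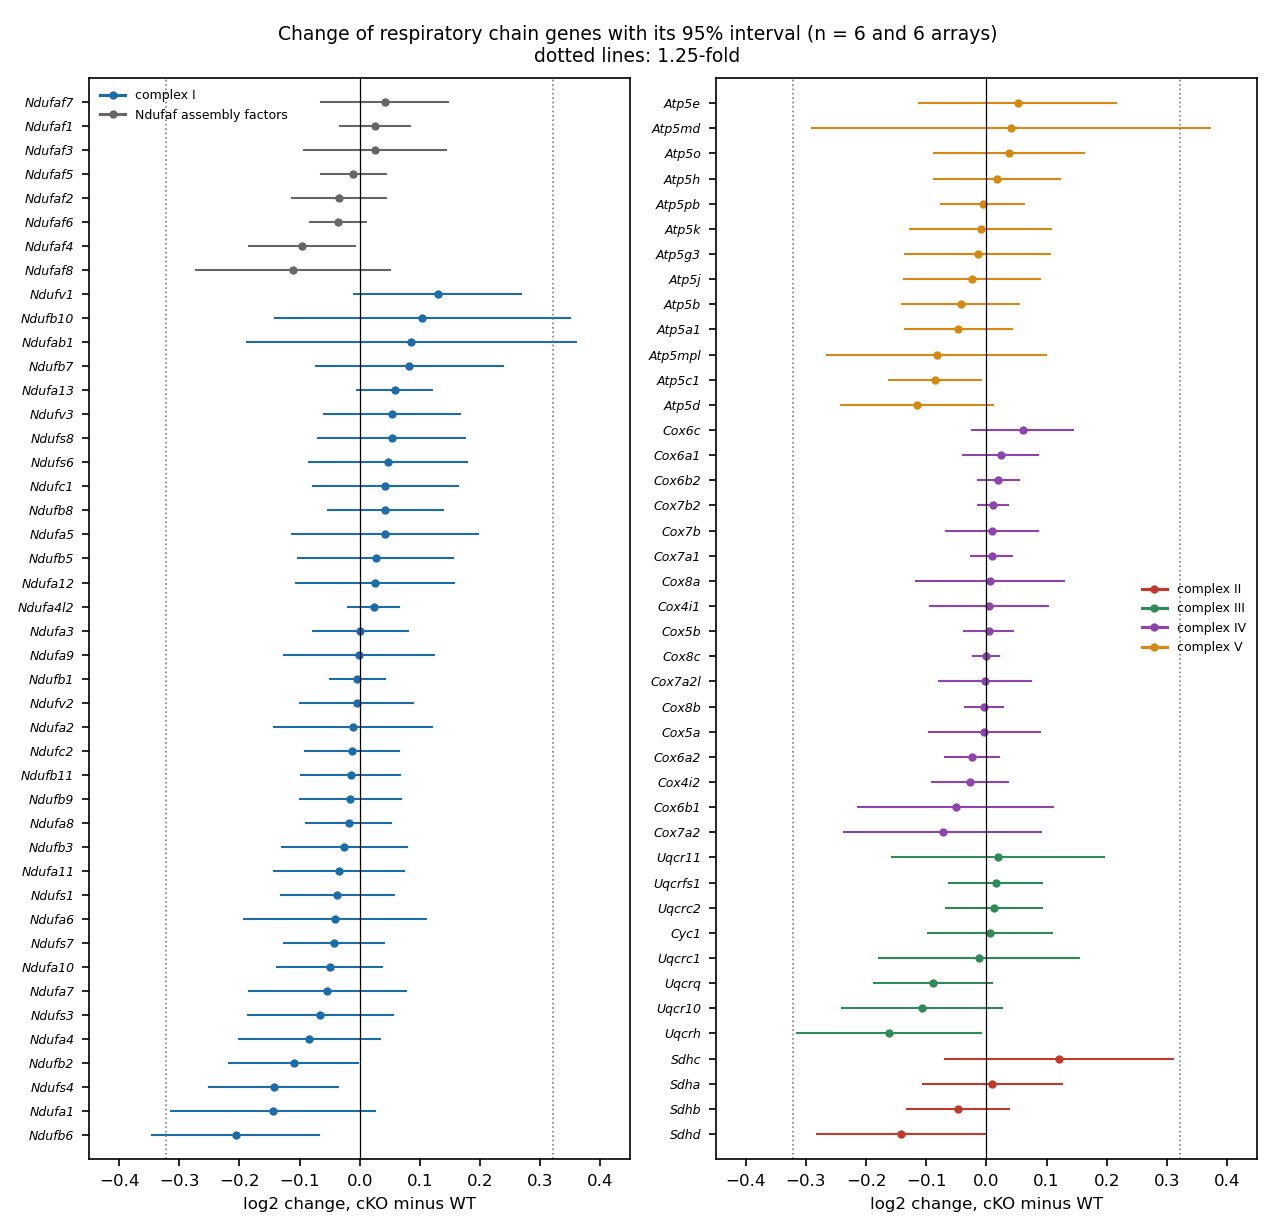
Log2 change (cKO minus WT, x axis) of 86 of the 87 members, with points for the estimate and lines for the 95% interval from 6 WT and 6 cKO arrays. Colours mark the complexes and dotted lines a 1.25-fold change. Most intervals cross 0, and 82 of the 86 lie between the dotted lines.

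How far these values bear on a gene depends on its level. The WT means of the members ran from 5.32 to 12.94, with a median of 7.37. In 73 members the mean over all arrays was above the array median of 5.71, and in 38 it was above 8. The 14 members at or below the array median were Ndufa4l2, Ndufb1, Ndufb3, Cox5b, Cox6a2, Cox6b2, Cox6c, Cox7a1, Cox7a2l, Cox7b, Cox7b2, Cox8b, Cox8c and Atp5h. RMA compresses differences at that end of the scale, so a narrow interval there is a statement about the reading and not about the transcript. Over the 73 brighter members the median difference was -0.013, beside -0.00065 over the 12713 probe sets above the array median. In those 73, 7 had an unadjusted p under 0.05, all lower, or 9.59%, against 8.32% of the brighter probe sets that were lower and 15.7% in either direction.

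**Figure D2:**
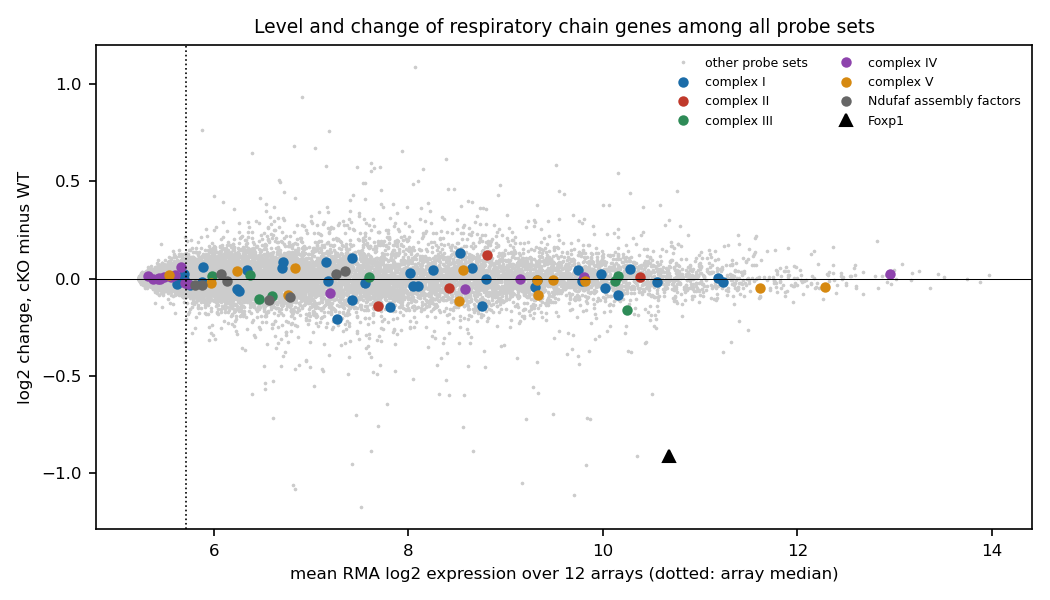
Mean RMA log2 expression over 12 arrays (x axis) against the log2 change, cKO minus WT (y axis), for all 25428 probe sets in grey and the 87 members in colour by complex. The members stay between -0.21 and 0.13 at every level, while Foxp1, the triangle, lies at -0.91, and the dotted line marks the array median of 5.71.

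Complex I oxidises NADH and is the largest assembly of the chain. None of its 37 members was called, 3 had a negative difference at an unadjusted p under 0.05 and 0 a positive one, and the median difference was -0.011. Ndufb6, an accessory subunit of the membrane arm, read 7.23 to 7.54 (median 7.33) in WT and 7.03 to 7.35 (median 7.16) in cKO. In 5 of 6 cKO arrays the value lay below every WT array, and cKO replicate 4 lay within the WT range. Its difference was -0.21 ± 0.06 (SE), or -13.3% on the linear scale (limma adjusted p = 0.226). In 24 of 24 alternative analyses its sign was negative and the unadjusted p was under 0.05. The alternatives reuse these same arrays, and some leave the difference unchanged by design. Such tallies, here and below, describe dependence on the processing and are not independent support.

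Ndufs4, an accessory subunit near the NADH-oxidising module and a known site of mutation in Leigh syndrome, read 8.70 to 8.94 (median 8.83) in WT and 8.61 to 8.81 (median 8.65) in cKO. Its difference was -0.14 ± 0.05 (limma adjusted p = 0.288), and the unadjusted p stayed under 0.05 in 22 of 24 alternatives. Ndufb2, another membrane arm subunit, read 7.33 to 7.55 in WT and 7.21 to 7.48 in cKO, with a difference of -0.11 ± 0.05 (adjusted p = 0.450). In 8 of 24 alternatives its unadjusted p was under 0.05.

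Core subunits of complex I showed both signs. Ndufv1, which binds the flavin that accepts electrons from NADH, read 8.37 to 8.58 (median 8.46) in WT and 8.34 to 8.74 (median 8.61) in cKO, the largest positive difference of all members at 0.13 ± 0.06 (limma adjusted p = 0.503). Ndufs1, an iron-sulfur subunit next to it, differed by -0.037 (95% interval -0.13 to 0.057). The membrane arm subunit Ndufb10 had the widest WT range of complex I, 0.66 log2 units, and its difference of 0.10 ± 0.11 was smaller than that spread. Of the 3 X-linked members, Ndufa1 differed by -0.14 (adjusted p = 0.549), Ndufb11 by -0.015 and Cox7b, a complex IV subunit, by 0.0095. With the level of Y-linked genes in the model 0 members were called.

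**Figure D3:**
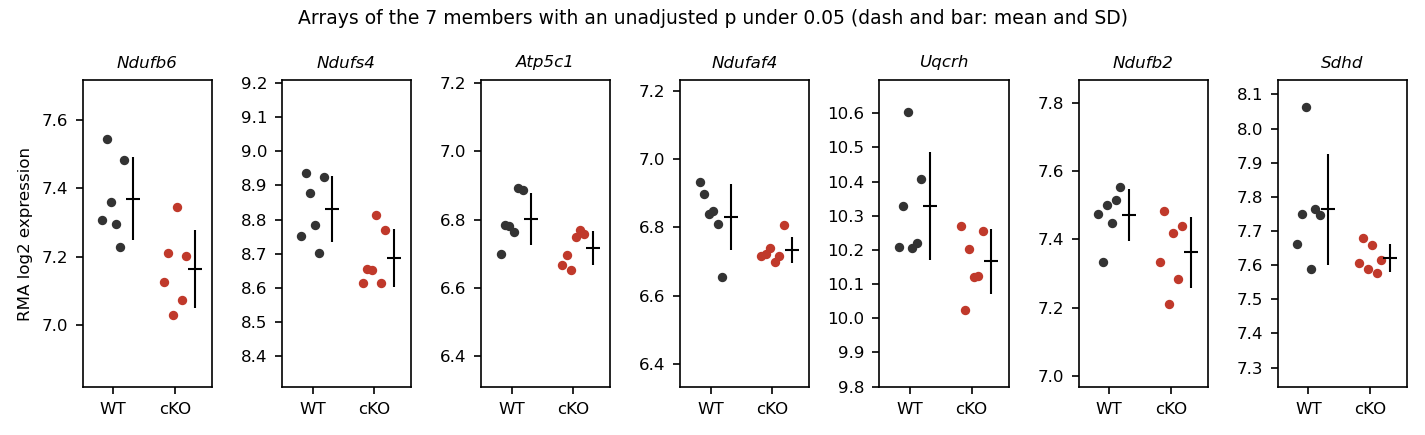
RMA log2 expression (y axis, each panel spanning the same 0.9 log2 units) of the 7 members with an unadjusted p under 0.05, ordered by p, with a point per array for WT and cKO. The dash and bar give the mean and SD of 6 arrays. In every panel the cKO mean lies lower and the groups overlap, and single WT arrays stand high in Uqcrh and Sdhd.

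Complex II, succinate dehydrogenase, links the citric acid cycle to the chain and is the only complex with all its subunits encoded in the nucleus. None of the 4 genes was called. Sdhd, a membrane anchor, read 7.59 to 8.06 (median 7.75) in WT and 7.58 to 7.68 (median 7.61) in cKO. Its difference was -0.14 ± 0.06 (limma adjusted p = 0.453). WT replicate 3 set the top of the WT range, and without it the difference was -0.082 (unadjusted p = 0.0338, limma adjusted p = 0.388). The unadjusted p was under 0.05 in 10 of 24 alternatives. Sdhc, the other anchor, lay at 8.53 to 9.07 in WT and 8.72 to 9.03 in cKO, with a difference of 0.12 ± 0.09 (adjusted p = 0.674). Sdha, the flavoprotein that oxidises succinate, differed by 0.0098 (interval -0.11 to 0.13), and the iron-sulfur subunit Sdhb by -0.047 (interval -0.13 to 0.038).

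Complex III passes electrons from ubiquinol to cytochrome c. Of its 8 members 0 were called. Uqcrh, the hinge protein between cytochrome c1 and cytochrome c, read 10.21 to 10.60 (median 10.27) in WT and 10.02 to 10.27 (median 10.16) in cKO. The difference was -0.16 ± 0.07 (limma adjusted p = 0.420), and it was -0.11 without WT replicate 3 and -0.074 without WT replicates 3 and 6. Its unadjusted p was under 0.05 in 12 of 24 alternatives. The small subunits Uqcr10 and Uqcrq differed by -0.11 ± 0.06 and -0.088 ± 0.045 (adjusted p = 0.578 and 0.522). The catalytic subunits were closer to 0: Cyc1, cytochrome c1, differed by 0.0058 (interval -0.097 to 0.11), and Uqcrfs1, the Rieske iron-sulfur protein, by 0.016 (interval -0.062 to 0.093). Uqcrc1, a core structural subunit, differed by -0.013 (interval -0.18 to 0.15). Uqcr11, with the widest WT range of the complex at 6.20 to 6.70, differed by 0.020 ± 0.081.

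Complex IV, cytochrome c oxidase, reduces oxygen to water. Its 17 members had a median difference of 0.0040, 0 were called, and 0 had an unadjusted p under 0.05. Several of its subunits have tissue isoforms with genes of their own, whose readings are given gene by gene. Cox4i1, the general form of subunit 4, read 9.70 to 9.92 (median 9.81) in WT and 9.68 to 9.91 (median 9.83) in cKO, an interval of -0.093 to 0.10 for the difference. Cox4i2, the form known from lung and from low oxygen, read 5.68 to 5.84 in WT and 5.67 to 5.78 in cKO, at the array median. Cox6a1, the general form of subunit 6a, read 12.89 to 13.02 in both groups and was the brightest member, with an interval of -0.038 to 0.086. Its heart and muscle form Cox6a2 read 5.68 to 5.75 in WT and 5.66 to 5.79 in cKO.

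Cox7a2, the general form of subunit 7a, read 7.03 to 7.48 in WT and 7.05 to 7.31 in cKO, and the muscle form Cox7a1 read 5.54 to 5.58 and 5.51 to 5.61. Cox8a read 9.61 to 9.95 in WT and 9.72 to 9.89 in cKO. The muscle form Cox8b (5.39 to 5.46 and 5.40 to 5.46) and the testis form Cox8c (5.36 to 5.39 and 5.35 to 5.39) lay near the lowest values of the arrays in both groups. Cox6b1 read 8.34 to 8.84 in WT, the widest WT range of the complex, and 8.41 to 8.68 in cKO, and its testis form Cox6b2 read 5.56 to 5.63 and 5.57 to 5.65. Cox7b, a general subunit, read 5.34 to 5.57 in WT and 5.43 to 5.55 in cKO, and its testis form Cox7b2 read 5.31 to 5.35 in both groups. Different probe sets are not compared in level here, and a low reading does not show absence: Cox5b, Cox6c and Cox7b, found in most tissues, also read no more than 5.77 on every array. Cox5a, another nuclear-encoded subunit, read 9.05 to 9.25 in WT and 9.10 to 9.23 in cKO (interval -0.095 to 0.089). Cox6c had the smallest p of the complex, with 0.061 ± 0.038 (limma adjusted p = 0.621).

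Complex V makes ATP. Of its 13 members 0 were called, 9 had a negative difference and 4 a positive one, and the median was -0.014, which was 0.0019 without WT replicate 6 and -0.039 without WT replicate 1. Atp5c1, the central rotor stalk, read 6.70 to 6.89 (median 6.78) in WT and 6.65 to 6.77 (median 6.72) in cKO. Its difference was -0.086 ± 0.035 (limma adjusted p = 0.387), with an unadjusted p under 0.05 in 17 of 24 alternatives. Atp5d, a further stalk subunit, differed by -0.12 ± 0.06 (adjusted p = 0.514). Most genes of the complex, among them those of the catalytic head, had a smaller SD in cKO than in WT. So did most genes of complexes I to IV, and the share over all probe sets was not counted. In the head, Atp5a1 read 11.50 to 11.80 in WT and 11.57 to 11.62 in cKO (difference -0.046, interval -0.14 to 0.043), and Atp5b read 12.19 to 12.47 and 12.24 to 12.33 (difference -0.043, interval -0.14 to 0.055). Atp5g3, a gene for the proton-carrying c ring, differed by -0.014 (interval -0.13 to 0.11). Atp5md had the widest WT range of all named members, from 8.06 to 8.75, and differed by 0.042 ± 0.151. Atpif1, whose product inhibits the ATP synthase and which is not a member by symbol, read 11.27 to 11.58 in WT and 11.45 to 11.53 in cKO, with a difference of 0.00054 (interval -0.10 to 0.10).

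Among the 8 Ndufaf assembly factors 0 were called and the median difference was -0.023. Ndufaf4 read 6.65 to 6.93 (median 6.84) in WT and 6.70 to 6.81 (median 6.72) in cKO. Its difference was -0.096 ± 0.040 (limma adjusted p = 0.401). WT replicate 6 gave the lowest WT value, and without that array the difference was -0.13 and the adjusted p 0.0536, the smallest that a member reached in any of the 24 alternatives. Its unadjusted p was under 0.05 in 12 of 24, and was 0.0860 with the replicate number as a block and 0.0754 with the cortical marker level in the model. Ndufaf8 differed by -0.11 ± 0.07 (adjusted p = 0.644) and Ndufaf6 by -0.035 ± 0.021 (adjusted p = 0.600).

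Promoters of respiratory chain genes are known for sites of NRF1 and of ETS factors such as GABP, and Foxp1 binds forkhead sites. RefSeq promoter sequences (GRCm38.p6) were matched for 70 of the 87 members, and the 250 bases before each start were searched on both strands for GCATGCG (the core of the NRF1 palindrome), CCGGAAG (ETS) and TGTTTAC (forkhead). None of these motifs contains another. The NRF1 letters were found in 8 members (11.4%, against 3.43% of the 27025 genes with a promoter sequence), namely Atp5j, Atp5k, Cox6a1, Ndufa6, Ndufa8, Ndufa11, Ndufaf4 and Sdhb. The ETS letters were found in 13 members (18.6% against 7.83%), and the forkhead letters in 2 (2.86% against 3.54%), Cox7a2 and Ndufaf1. Atp5j and Cox6a1 held both the NRF1 and the ETS letters. The base composition of the promoters was not matched. The following promoters are those of the members with an unadjusted p under 0.05 that hold one of these motifs, and that of Cox7a2 for its forkhead match. Each runs 5′ to 3′ on the gene's strand and ends at the base before the start, with the motif in capitals on whichever strand it lies.

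Ndufb6, chr4:40279422-40279671, minus strand: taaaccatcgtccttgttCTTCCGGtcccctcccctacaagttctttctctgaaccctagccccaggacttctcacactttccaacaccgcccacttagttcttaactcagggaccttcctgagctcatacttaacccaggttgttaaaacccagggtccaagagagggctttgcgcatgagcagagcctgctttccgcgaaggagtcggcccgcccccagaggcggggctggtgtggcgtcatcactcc
Sdhd, chr9:50603850-50604099, minus strand: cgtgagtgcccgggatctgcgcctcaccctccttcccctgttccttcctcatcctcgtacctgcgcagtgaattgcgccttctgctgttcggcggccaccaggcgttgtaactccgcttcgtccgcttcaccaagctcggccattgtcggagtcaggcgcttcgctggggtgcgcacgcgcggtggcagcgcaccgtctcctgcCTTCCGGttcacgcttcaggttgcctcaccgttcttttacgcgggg
Uqcrh, chr4:116075071-116075320, minus strand: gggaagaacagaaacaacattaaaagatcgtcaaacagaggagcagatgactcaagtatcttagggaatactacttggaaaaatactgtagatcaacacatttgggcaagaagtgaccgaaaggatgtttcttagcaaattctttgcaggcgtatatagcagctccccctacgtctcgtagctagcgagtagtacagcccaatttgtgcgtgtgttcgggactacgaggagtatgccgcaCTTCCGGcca
Ndufaf4, chr4:24897833-24898082, plus strand: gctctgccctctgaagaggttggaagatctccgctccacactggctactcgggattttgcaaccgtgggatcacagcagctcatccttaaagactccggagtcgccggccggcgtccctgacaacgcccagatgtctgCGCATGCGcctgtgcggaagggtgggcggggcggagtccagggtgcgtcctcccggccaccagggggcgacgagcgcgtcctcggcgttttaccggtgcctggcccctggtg
Cox7a2, chr9:79759854-79760103, minus strand: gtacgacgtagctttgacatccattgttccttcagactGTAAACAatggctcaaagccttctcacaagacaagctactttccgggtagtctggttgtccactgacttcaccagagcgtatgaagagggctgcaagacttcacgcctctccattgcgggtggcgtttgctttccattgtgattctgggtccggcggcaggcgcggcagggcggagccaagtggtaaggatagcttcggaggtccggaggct

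In Ndufb6, Sdhd and Uqcrh the capitals mark the ETS letters on the opposite strand. They begin 232, 46 and 10 bases before the start. Ndufaf4 has the NRF1 letters on both strands, from 112 bases before it, and Cox7a2 the forkhead letters, on the opposite strand, 212 bases before it. Cox7a2 differed by -0.073 ± 0.075 (limma adjusted p = 0.783). The promoters of Ndufs4, Ndufb2 and Atp5c1 held none of the 3 motifs in this window. A match describes letters and not binding.

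Single WT arrays stood apart for many members, most clearly in complexes I and II. In WT replicate 6, 65 of 87 members lay above their WT mean (74.7%, against 51.9% of all probe sets). Of the 37 complex I genes 21 had their highest WT value there. The same held for 3 of 8 complex III, 4 of 17 complex IV and 4 of 13 complex V genes. The median deviation from the WT mean was 0.096 in complex I, 0.095 in complex III and 0.081 in complex V. WT replicate 6 was the highest of the 6 WT arrays for 24.2% of brighter probe sets, and for 39.1% of members. Without it the members' median difference was 0.0040, of the opposite sign to that over all arrays. The sign also turned without cKO replicate 5, to 0.0016. The complex I median turned from -0.011 to 0.0050 and that of complex V from -0.014 to 0.0019 without WT replicate 6.

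Complex II was high on another array. All 4 of its genes had their highest WT value in WT replicate 3, with a median deviation of 0.26. Sdha read 10.60 there and 10.20 to 10.40 in the other WT arrays, and Sdhc 9.07 against 8.53 to 8.91. On the same array 9 of 16 genes of pyruvate dehydrogenase and the citric acid cycle and 9 of 17 genes of glycolysis had their highest WT value, against 21.6% of brighter probe sets. Complex I genes were highest there in 5 and lowest in 10 of 37. Without WT replicate 3 the median difference of complex II turned from -0.018 to 0.014. What sets these 2 arrays apart was not tested. Over the 73 brighter members, the median correlation between pairs of genes over the 12 arrays, after group means were removed, was 0.049 (quartiles -0.23 and 0.34). All genes share the same 12 arrays.

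**Figure D4:**
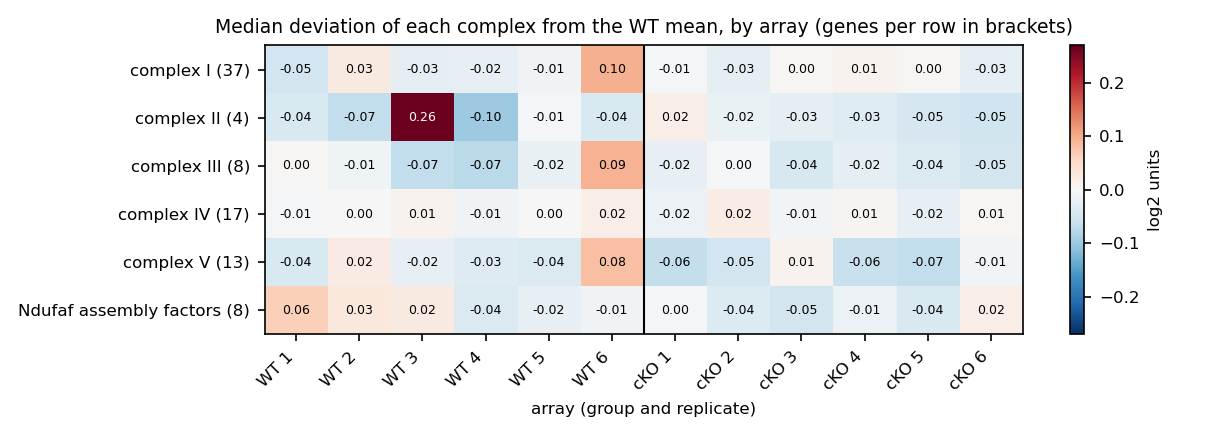
Median deviation from the WT mean, in log2 units, of the genes of each complex (rows, number of genes in brackets) on each array (columns, 6 WT then 6 cKO). Red is above and blue below the WT mean. Complex II stands at 0.26 in WT replicate 3, and complexes I, III and V are high in WT replicate 6, while the cKO arrays stay between -0.065 and 0.021.

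Genes that build, feed or regulate the chain were read from lists of other energy metabolism genes. Across these 9 lists 0 genes passed at a limma adjusted p under 0.05. To an unadjusted p under 0.05 came 10.7% of all probe sets, 5.06% higher and 5.67% lower. At that p, 1 of 10 further complex I assembly factors was higher and 0 lower. Of 32 assembly factors for complexes II to V, 2 were higher and 0 lower. Acad9 differed by 0.11 ± 0.05 (adjusted p = 0.411) and Nubpl by -0.035 ± 0.020 (adjusted p = 0.585). Cox17, a copper chaperone for complex IV, differed by 0.15 ± 0.06 (adjusted p = 0.355), and Sdhaf1, an assembly factor of complex II, by 0.12 ± 0.05 (adjusted p = 0.383). Of 16 electron carrier and ubiquinone genes 1 was higher and 1 lower. These were Etfa, of the electron transfer flavoprotein (0.13 ± 0.04, adjusted p = 0.255), and Coq4, for ubiquinone synthesis (-0.16 ± 0.07, adjusted p = 0.453, and -0.098 without WT replicate 3). Cycs, cytochrome c, read 5.46 to 5.52 in WT and 5.45 to 5.54 in cKO. These values lie below the array median of 5.71, where RMA compresses differences and a low reading does not show absence.

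Of 19 regulators of mitochondrial biogenesis, 18 had a 95% interval within a 1.25-fold change. At an unadjusted p under 0.05, 1 of the 19 genes was higher and 0 lower (5.26%, against 10.7% of all probe sets). The median difference was 0.020. Lrpprc, which stabilises mitochondrial messenger RNAs, read 7.61 to 8.08 in WT and 8.01 to 8.21 in cKO (0.22 ± 0.07, limma adjusted p = 0.293). Polg2, of the mitochondrial DNA polymerase, differed by 0.074 ± 0.036 (adjusted p = 0.506). Ppargc1a, the coactivator PGC-1α, read 6.58 to 6.79 (median 6.71) in WT and 6.67 to 6.85 (median 6.79) in cKO, a difference of 0.070 (interval -0.015 to 0.15, adjusted p = 0.560). Nrf1 differed by 0.045 ± 0.039, Tfam, which packages and transcribes mitochondrial DNA, by 0.040 ± 0.035, and Gabpa by -0.0034 ± 0.0426.

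Of 16 genes of pyruvate dehydrogenase and the citric acid cycle, 3 were lower and 1 higher at an unadjusted p under 0.05, or 25%. All 16 lay above the array median, where 15.7% of probe sets came to that p. They had 13 negative differences and a median of -0.034, which was -0.0065 without WT replicate 3. Idh3g read 11.03 to 11.11 in WT and 10.95 to 11.04 in cKO (-0.071 ± 0.019, limma adjusted p = 0.143), and Suclg1 6.53 to 6.75 and 6.42 to 6.55 (-0.13 ± 0.03, adjusted p = 0.154). In glycolysis, with 17 genes, 1 was higher and 2 lower, and the median was 0.00038. Ldhb, a lactate dehydrogenase subunit, read 8.78 to 9.04 (median 8.94) in WT and 9.04 to 9.18 (median 9.13) in cKO, and its groups did not overlap. Its difference was 0.19 ± 0.04 (adjusted p = 0.0730), the smallest adjusted p in the 9 lists, and it passed when dim probe sets were removed (adjusted p = 0.0396) and when WT replicate 6 was (adjusted p = 0.0492). Pfkp, a phosphofructokinase, differed by -0.21 ± 0.07 (adjusted p = 0.307).

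The remaining lists differed in median. All counts here are at an unadjusted p under 0.05, to which 10.7% of all probe sets and 15.7% of those above the array median came. Of 14 fission, fusion and turnover genes 1 was higher and 0 lower, with a median of 0.024, Mief1 at 0.083 ± 0.035 (limma adjusted p = 0.415) and Bnip3 at 0.14 ± 0.07 (adjusted p = 0.472). Of 13 redox and uncoupling genes, all above the array median, 2 were higher and 2 lower, or 30.8%. Their median was -0.052, with the smallest p for catalase, Cat (0.095 ± 0.032, adjusted p = 0.276), and the mitochondrial peroxiredoxin Prdx3 (-0.23 ± 0.08, adjusted p = 0.282). Of 8 carrier and channel genes 1 was lower, the phosphate carrier Slc25a3 (-0.10 ± 0.04, adjusted p = 0.346), and the ATP carrier Slc25a4 differed by -0.078 ± 0.055 (adjusted p = 0.666), and by -0.022 without WT replicate 3. Of these 8, 7 had a negative difference, and their median was -0.064, and -0.015 without WT replicate 3.

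**Figure D5:**
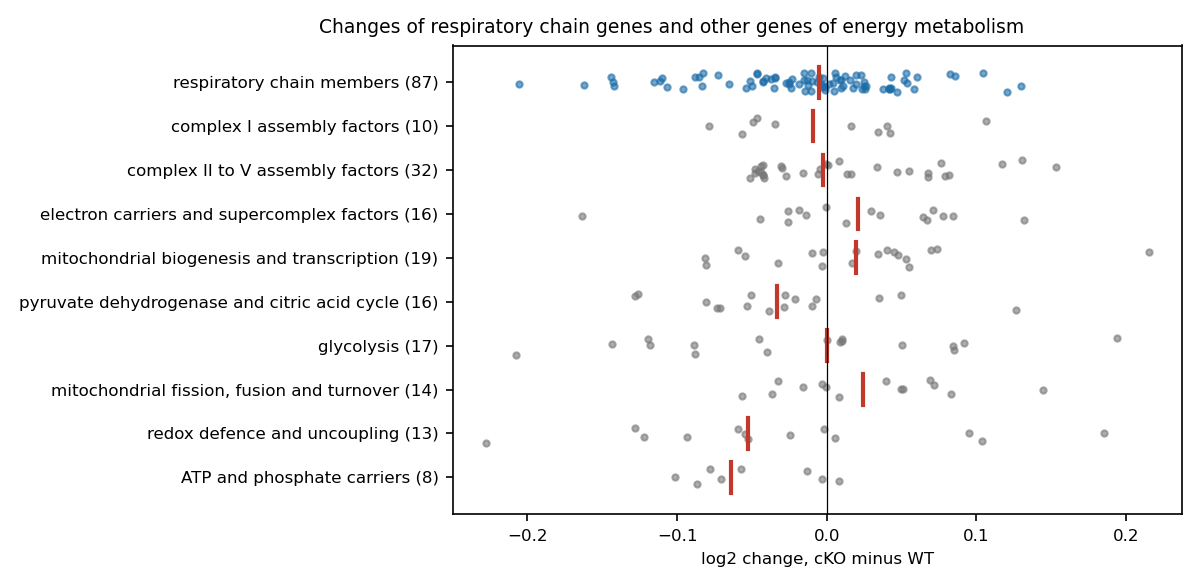
Log2 change, cKO minus WT (x axis), of each gene of the respiratory chain members and of 9 other lists of energy metabolism (rows, number of genes in brackets). Points are genes, with random vertical spread, and red bars are medians, which lie between -0.064 and 0.024.

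Markers of the cell types in the dissected tissue were read beside these values. The 16 striatal projection neuron markers averaged 9.39 to 9.66 per array in WT and 9.27 to 9.43 in cKO, with 9 negative and 7 positive differences. Of these, 2 fell, Adora2a and Pde10a (limma adjusted p = 0.00859 and 0.00869), and 0 rose, where 0.728% of all probe sets were called. At an unadjusted p under 0.05, 7 were lower and 3 higher, or 62.5%. All 16 lay above the array median, where 15.7% of probe sets came to that p. Penk was the most positive at 0.38 (adjusted p = 0.0501, named after its value was seen). The 10 markers of dividing and progenitor cells had 10 positive differences, 0 called, and averaged 7.96 to 8.34 in WT and 8.21 to 8.43 in cKO. The 8 cortical neuron markers had 8 positive differences, 0 called, and averaged 6.08 to 6.65 and 6.12 to 6.88. With the dividing-cell level in the model 0 members were called. Of the 7 named above, 2 kept an unadjusted p under 0.05, Ndufb6 and Atp5c1. Counting all members, 5 were lower and 0 higher at that p in this model, and the members' median difference was -0.018. With the cortical level 0 were called and 4 of the 7 kept an unadjusted p under 0.05. Of the other 3, Sdhd differed by -0.14, Ndufaf4 by -0.092 and Uqcrh by -0.12 in that model. Erythroid (5.44 to 5.55), skeletal muscle (5.57 to 5.66) and microglial (5.88 to 5.97) list means lay near the array median on all arrays. Astrocyte and oligodendrocyte lineage genes averaged 6.79 to 7.12 in WT, a range that held all cKO arrays, and endothelial and pericyte genes 6.93 to 7.02 in WT and 6.97 to 7.04 in cKO, with 0 called in each.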

How the data were processed

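Per the labels' protocols, striata of both hemispheres were dissected, and Trizol was used to isolate total RNA, and the label was biotin. The authors deposited log2 values made with RMA, per the submitters' processing notes, which give no version. The sources used here do not give the array model, probe definition or genome build. The sorted columns were nearly identical, so a change common to all genes would not be visible. No per-sample column was left unused. Symbols came from the platform annotation, updated by gene ID from RefSeq (GRCm38.p6, 25237 of 25428 probe sets matched). The number of arrays limits the precision.

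The test was limma's moderated linear model (lmFit and eBayes, limma 3.58.1, R 4.3.3), two-sided and without covariates, over all 25428 probe sets and 12 arrays, with Benjamini-Hochberg adjustment over all of them and a threshold of 0.05. SE and 95% intervals are limma's. The fit was tested on simulated data. Members and lists were chosen with earlier results of these data known, so members are described by counts and medians, with no test of the list. Named genes were the 3 smallest p and the widest WT range in each complex, core subunits and isoform pairs, and in each list the 2 smallest p. The values of 1 member are not reported here singly, and it is kept in the counts. Alternatives were other normalizations, a filter on dim probe sets, other variance models, covariates, a replicate block and left-out arrays. The shared replicate numbers were not taken to pair the samples.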

Additional observations from a re-analysis of the deposited data

Results flagged for a closer look

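In 134 groups of 6 arrays, from 67 named genes, 13 had a single array standing far from the others by Dixon's test. Chance flags about 5% of groups, but some of these genes were named for a wide WT range, so the count is not set against that share. In WT, replicate 3 was high for Sdhd (8.06, the rest 7.59 to 7.77), Slc25a4 (11.73, the rest 11.37 to 11.43) and Coq4 (7.95, the rest 7.49 to 7.65), and low for Atpif1 (11.27, the rest 11.48 to 11.58). WT replicate 6 was high for Uqcr11 (6.70, the rest 6.20 to 6.37), and WT replicate 1 was low for Atp5md (8.06, the rest 8.52 to 8.75).

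In cKO, replicate 4 was low for Ndufb10 (7.18, the rest 7.45 to 7.61) and high for Uqcr11 (6.61, the rest 6.24 to 6.37) and Cox6a2 (5.79, the rest 5.66 to 5.69). Replicate 6 was high for Uqcrc1 (10.33, the rest 10.02 to 10.13) and Atp5b (12.33, the rest 12.24 to 12.27). Replicate 5 was high for Coq4 (7.62, the rest 7.37 to 7.46), and replicate 1 was low for Tfam (5.73, the rest 5.84 to 5.91).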

How the results depend on the processing

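The count of 0 called members was the same under all alternatives run, including an adjusted p under 0.1 and leaving out the assembly factors. At an unadjusted p under 0.05, 3 to 8 members were lower and 0 to 4 higher. The members' median difference moved by less than the SD of the array medians in WT (0.031), and lay between -0.013 and 0.0040 when 1 array was left out. With the dividing-cell level as covariate it was -0.018. All probe sets called numbered 185, and 106 to 227 with 1 array left out. They numbered 278 with dim probe sets left out, 364 at an adjusted p under 0.1, 106 without variance moderation, 98 with the cortical and 75 with the dividing-cell level as covariate, and 64 when replicate numbers entered the model as blocks (replicate block). Same-numbered samples had correlated deviations above 0.1 in 1 of 6 pairs, so the numbers were not taken to pair the samples. The cell type markers were not followed singly in the alternatives. Among the 67 other named genes only Ldhb crossed the threshold in an alternative. Sign changes of differences whose unadjusted p was 0.05 or more in both analyses, 96 of 1597 values, were not counted as reversals, and 0 others occurred. The RMA scale has no measure of signal over background per array, so the precision of the dimmest members is not known.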

Other observations

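The 4 pseudogene rows that the symbol pattern also matched gave values of their own. Cox5b and Atp5c1 were members, while Ndufs5 and Atp5l had no row among the members. Cox5b-ps read 10.66 to 10.84 in WT and 10.65 to 10.90 in cKO, on arrays where Cox5b read 5.39 to 5.46 and 5.41 to 5.51. Atp5l-ps1 read 8.83 to 9.33 in WT and 8.95 to 9.31 in cKO (difference 0.14 ± 0.09, limma adjusted p = 0.610), and Ndufs5-ps read 6.74 to 7.02 and 6.74 to 7.01. Atp5c1-ps read 5.30 to 5.38 and 5.29 to 5.37. The probe sequences were not used here, so whether a pseudogene row also reads its parent transcript was not tested. The difference of Cox5b-ps between the genotypes was 0.0044 (95% interval -0.088 to 0.097).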
